A study of Mus musculus with 3 samples.

Results

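The cytosolic ribosomal proteins are the protein subunits of the ribosome that translates nuclear messages in the cytoplasm. Their genes were taken from the mouse arrays of the series by name alone, as every probe named Rpl or Rps with a number and at most a letter and a digit after it, or named Rplp0, Rplp1, Rplp2 or Rpsa. S6 kinases, whose symbols also begin with Rps, were left out. This gave 180 of 55681 gene probes and 84 of 35287 gene names, 52 for the large subunit (113 probes) and 32 for the small subunit (67 probes).

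MEF, fibroblasts grown from mouse embryos of the C57BL/6 strain, were compared in 3 states, a control, BP at 10 µg/ml (BP10) and BP at 40 µg/ml (BP40), where BP is n-butylidenephthalide, a compound of the herb Angelica sinensis. MEF are a mixed primary culture, made here from embryos without heads, organs or legs, and the labels give no length of treatment. The control is labelled as having no treatment, and the study's text names the solvent DMSO for it. All 3 carried the same Cy3 label, and each was hybridised to 1 Agilent array, so no test between conditions was possible and every ratio below compares 2 arrays. The BP10 and BP40 arrays were scanned in 1 session and the control array in another, so scan session and BP cannot be told apart in either comparison with the control.

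A ribosome has a small subunit, which reads the message, and a large subunit, which joins the amino acids. Most of the proteins are needed in equal numbers, and the genes of these proteins are among the most strongly transcribed of any growing cell. Their messages begin with a run of pyrimidines, the 5′ terminal oligopyrimidine (TOP) tract, through which the mTOR pathway controls their translation together. Several of the proteins also act outside the ribosome, and an imbalance between them can stabilise p53.

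The pyrimidine tract could be seen in the promoters themselves, which RefSeq gives for 62 of the 84 genes under the build GRCm38.p6. In the window from 20 bases before to 30 bases after the annotated start, 34 of the 62 genes (54.8%) held a run of 8 or more C or T on the gene's strand, against 21.5% of 27025 genes. Over the whole 300-base promoter sequence, the motif CTTTCC on the gene's strand was held by 25 of the 62 (40.3%) against 16% of all genes. CCGGAA on either strand, the core bound by ETS factors, was held by 35 (56.5%) against 16.7%. TATAAA on the gene's strand was held by 6 (9.68%), close to the 9.77% of all genes. A match is a description of the letters and not a site. The 4 windows below are shown because their tract lies across the annotated start. The longest run of C and T is in capitals.
Rps6 (chr4:86857338-86857387, minus strand): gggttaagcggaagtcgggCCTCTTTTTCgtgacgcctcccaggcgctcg
Rpl35 (chr2:39005102-39005151, minus strand): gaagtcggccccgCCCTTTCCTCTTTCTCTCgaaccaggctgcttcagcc
Rplp2 (chr7:141447631-141447680, plus strand): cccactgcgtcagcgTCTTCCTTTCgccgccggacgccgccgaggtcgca
Rpl38 (chr11:114668560-114668609, plus strand): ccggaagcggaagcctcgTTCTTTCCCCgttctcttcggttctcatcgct
The 34 genes with the run had a median log2 ratio of 0.37 in BP40 against BP10, and the 28 without it 0.34.

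The level of a probe is given as log2 of its processed intensity minus the 75th percentile of the gene probes on the same array. A level of 0 is therefore the 75th percentile, and a step of 1 is a doubling. Probes differ in how well they hybridise, so a level is compared between arrays and not between genes. Where a gene has several probes, the one above background on the most arrays and then the brightest was used.

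Ribosomal protein probes were among the brightest on every array. Their median level of 7.68 (control), 7.41 (BP10) and 7.76 (BP40) lay above 99.4% of all gene names on each of the 3 arrays. Of the 84 genes, 75 had a level of 6 or more on all 3 arrays, out of 856 such gene names on the whole array, and no spot was saturated. A total of 82 were well above background on all 3 arrays, and the exceptions were Rpl10l and Rpl3l. The probes with the highest mean levels were those of Rpl41, the smallest ribosomal protein, at 8.39, 8.25 and 8.68 on control, BP10 and BP40, of Rplp0 and of Rpl10. Fibroblast markers had control levels from 2.70 for Pdgfra to 8.3 for Col1a2. Col1a1 had 7.83, 7.10 and 6.99, Vim 8.09, 7.50 and 7.73, and Dcn 3.98, 2.93 and 3.49 on control, BP10 and BP40. Markers of other cell types were mixed. Epithelial Cdh1 and Epcam, endothelial Cdh5 and Tie1, muscle Myf5, and Hbb-b1 and Alas2 of red cells were not well above background on any array. Krt8 and Krt18, Pecam1 and Kdr, Myod1, Myog and Acta1, and Hba-a1 from the same lists were above background on all 3, with control levels between -3.56 for Hba-a1 and 3.89 for Acta1. Of the macrophage markers all 6 were above background, with control levels from -2.52 for Ptprc to 4.53 for Itgam. Itgam had 4.09 and 4.10 on BP10 and BP40. Of all gene spots, 81.7%, 68.3% and 69.1% were well above background on control, BP10 and BP40. All 10 fibroblast markers were lower on BP10 than on control, with a median log2 ratio of -0.58, beside -0.23 for all gene names. On BP40 9 of 10 were lower, with a median of -0.63, beside -0.11 for all gene names. Of all 35287 gene names, 22991 were lower on BP10 and 20348 on BP40. The part of the fibroblast marker shift in the ribosomal protein ratios was not tested.

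**Figure D1:**
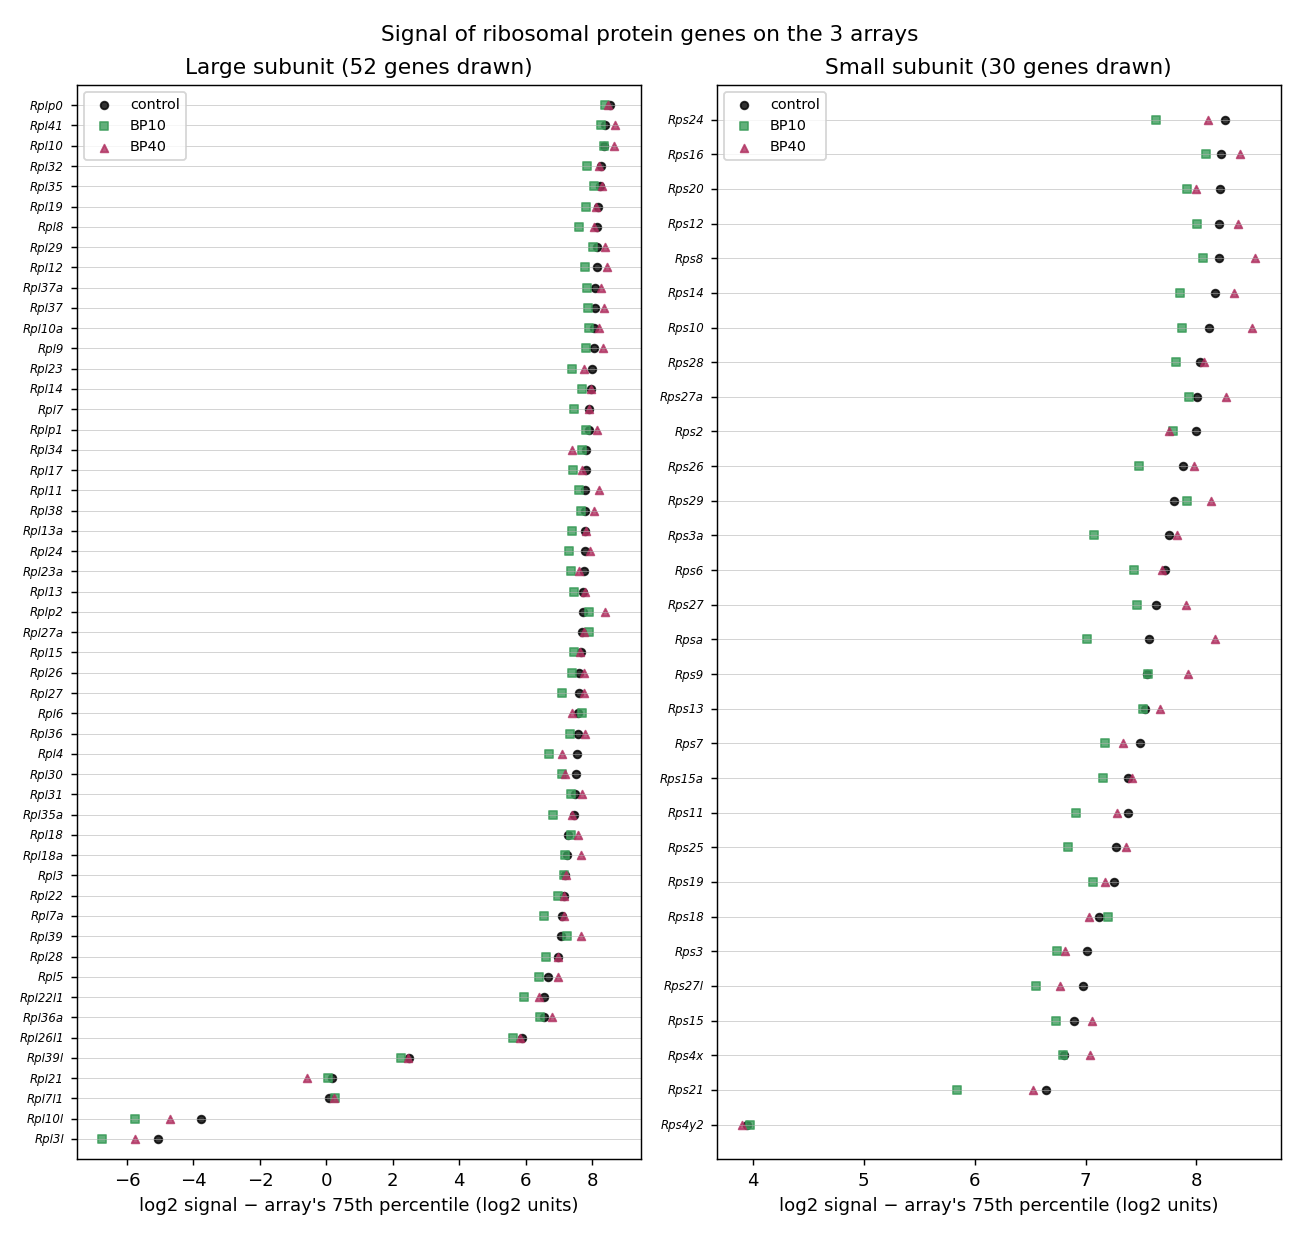
Level of ribosomal protein genes on the control, BP10 and BP40 arrays, as log2 signal minus the 75th percentile of the array, for the large (left) and small (right) subunit, without members not reported singly; the x axes differ in range. Most genes lie between 6 and 9, mostly with the BP10 square leftmost, and Rpl3l and Rpl10l lie far below the rest.

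BP10 gave the lowest of the 3 signals for most ribosomal protein genes. It was lowest for 70 of the 84 genes (83.3%), against 43.7% of all gene names. BP40 was the highest for 48 genes (57.1%), against 30.2% of all gene names. The commonest order, found in 42 genes, ran from BP10 through control to BP40. A further 28 genes ran from BP10 through BP40 to control. Equally bright genes of other kinds had similar shares. Among the 316 other gene names with a mean level between 7.16 and 8.0, the middle range of the ribosomal proteins, BP10 was lowest for 78.5% and BP40 highest for 65.8%.

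In BP10 against control, the 84 genes had a median log2 ratio of -0.22 (0.861-fold), and 73 genes were lower and 11 higher. The interquartile range ran from -0.40 to -0.13. All gene names had a median of -0.23, and the equally bright other genes -0.23 as well. Of the ribosomal proteins 13.1% were higher, beside 34.85% of all gene names and 16.8% of the equally bright ones. Past 1.5-fold, 8 ribosomal protein genes were lower and 0 higher, while 21.8% of all gene names were lower and 6.77% higher. Past 2-fold there was 1 gene, Rpl10l, against 13.1% of all gene names and 1.9% of the equally bright ones. Of the equally bright genes, 9.81% were lower past 1.5-fold, beside 9.52% of the ribosomal proteins.

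In BP40 against control, the ribosomal protein genes lay close to the control, with a median log2 ratio of 0.06 (1.04-fold) and with 50 genes higher and 34 lower. The median of all gene names was -0.11 and that of equally bright genes 0.10. Of the ribosomal proteins 59.5% were higher, beside 42.3% of all gene names and 67.4% of the equally bright ones. Past 1.5-fold, 3 genes were higher (Rplp2, Rpl39 and Rpsa), beside 6.93% of all gene names, and 2 were lower (Rpl10l and Rpl21), beside 21.5%. None of the 84 passed 2-fold, beside 13% of all gene names and 1.58% of the equally bright ones. Of the equally bright genes, 4.43% were higher and 2.2% lower past 1.5-fold, beside 3.57% and 2.38% of the ribosomal proteins.

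In BP40 against BP10, the pair scanned together, 76 of the 84 genes were higher at the higher dose, with a median log2 ratio of 0.36 (1.29-fold) and an interquartile range from 0.21 to 0.47. The median of all gene names was 0.06, and that of the equally bright genes was 0.32 with 91.1% of them higher. Past 1.5-fold, 10 genes were higher, beside 7.8% of all gene names, and 1 was lower, beside 6.1%. The higher ones included Rpsa, Rps3a, Rps21, Rpl27, Rpl24, Rpl12, Rps10, Rpl11 and Rpl7a, and the lower one was Rpl21. These calls are on the used probes. Other probes of these genes were not all past 1.5-fold, and that of Rpl24 gave 0.03. Rpsa alone passed 2-fold, beside 3.95% of all gene names and 0.633% of the equally bright ones. Of the equally bright genes, 11.1% were higher and 0.633% lower past 1.5-fold, beside 11.9% and 1.19% of the ribosomal proteins.

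**Figure D2:**
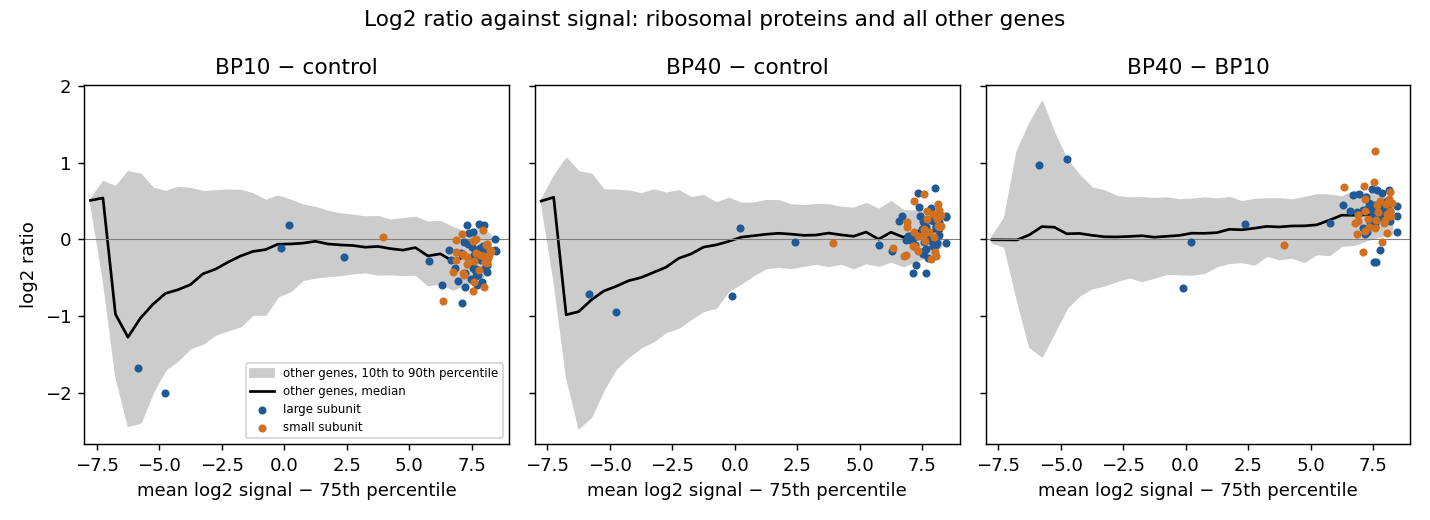
Log2 ratio (y axis) against mean level on the 3 arrays (x axis, log2 units over the 75th percentile) for the 3 comparisons; blue and orange points are large and small subunit genes, and the black line and grey band are the median and the 10th to 90th percentile of all other genes in steps of 0.5. In BP40 against BP10 the line climbs with the level from 0 to about 6, lies at 0.32 between 7 and 8, and the ribosomal proteins lie around it.

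Among gene names with levels above 0, the ratio of BP40 to BP10 climbed with brightness up to a level of about 6. Among genes other than ribosomal proteins, the median was 0.18 at levels between 4 and 4.5, 0.25 between 5.5 and 6, 0.32 between 6 and 6.5, 0.32 between 7 and 7.5 and 0.26 between 8 and 8.5. A running median of up to 500 genes around each in brightness, ribosomal proteins included, was then subtracted, a step chosen after the data had been seen. At the top of the brightness range the window held fewer genes, with more dimmer than brighter ones. After it, the ribosomal protein median was 0.04 in BP40 against BP10, -0.02 in BP40 against control and -0.01 in BP10 against control. The part of labelling or scanning in this trend was not tested.

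The scale also rests on the percentile used. The 6 probes for the E1A spike-in, an RNA added in known amount during labelling, that lay above the 75th percentile had median levels of 5.45 (control), 5.39 (BP10) and 6.26 (BP40). With the arrays scaled on these medians, the median log2 ratio of the ribosomal proteins was -0.15 for BP10 and -0.74 for BP40 over the control, and -0.51 between the doses. The medians of all gene names on that scale were -0.16, -0.92 and -0.81, so the shift was not particular to the ribosomal proteins. The spike-in probes did not share one ratio. Between the doses they ran from 0.38 to 0.93 with a median of 0.76, and the 2 brightest, at levels of 8.40 and 7.30 on the control, gave 0.38 and 0.63 there, and 0.25 and 0.11 in BP40 against control. The direction between the doses therefore depended on the scale, and ratios below are on the percentile scale. Cell number, RNA per cell and the amount of RNA labelled cannot be told apart on either scale.

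The medians of the large and small subunits lay close together in all 3 comparisons. In BP10 against control the median was -0.22 for the 52 large subunit genes and -0.21 for the 32 small subunit genes. In BP40 against control it was 0.05 and 0.10, and in BP40 against BP10 it was 0.37 and 0.33. The differences between the subunits, large minus small, were -0.01, -0.05 and 0.04. For scale, for the 54 genes with at least 2 probes above background on all arrays, the median SD between probes of a gene was 0.22, 0.25 and 0.17 in the 3 comparisons.

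**Figure D3:**
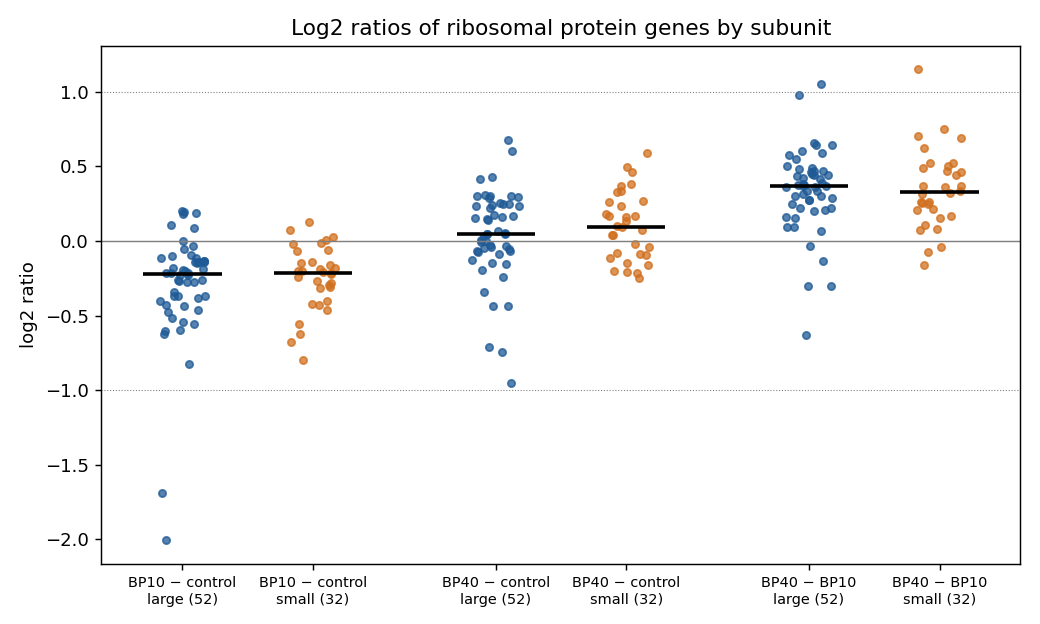
Log2 ratio of each ribosomal protein gene in the 3 comparisons, large subunit (blue, 52 genes) and small subunit (orange, 32 genes); bars are medians and dotted lines mark 2-fold. The medians of both subunits lie within 0.05 of each other in each comparison.

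The stalk of the large subunit, made of Rplp0, Rplp1 and Rplp2, recruits the elongation factors. Rplp2 had levels of 7.72, 7.91 and 8.40 on control, BP10 and BP40, and its log2 ratio of 0.67 (1.59-fold) was the highest of all members in BP40 against control. Rplp1, its partner in the stalk dimer, had levels of 7.90, 7.81 and 8.15. Rplp0, the base of the stalk, had 8.53, 8.38 and 8.48 on its used probe. A probe further along, at 7.57, 6.96 and 7.58, gave -0.62 in BP10 against control and 0.62 between the doses. Rplp2 was among the 8 genes (9.52%) that were higher on both BP arrays than on the control, beside 26.6% of all gene names and 14.2% of the equally bright ones.

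Rpl5 and Rpl11 carry the 5S rRNA into the large subunit and, when in excess, bind Mdm2 and free p53. Rpl5 had levels of 6.67, 6.40 and 6.97, and Rpl11 had 7.79, 7.60 and 8.21. On these probes both were lowest on BP10 and highest on BP40, with log2 ratios of 0.58 and 0.60 between the doses. The other probes of Rpl11 gave 0.14 and 0.47 between the doses, and -0.16 and -0.15 in BP40 against control.

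Of the proteins tied to signalling, Rps6, the substrate of the S6 kinases, had levels of 7.72, 7.43 and 7.69. Rps3, which also takes part in DNA repair, had 7.02, 6.75 and 6.82. Rps27a, made as a fusion with ubiquitin, had 8.01, 7.94 and 8.27. All 3 were lowest on BP10, and their log2 ratios between the doses were 0.26, 0.07 and 0.33, which is no more than the median of equally bright genes except for Rps27a.

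Rpl4, which lines the exit tunnel, had the lowest ratio in BP10 against control among members above background on every array, with levels of 7.54, 6.71 and 7.10 and a log2 ratio of -0.82 (1.77-fold lower). It stayed lower on BP40, by -0.44. Rps21 had 6.64, 5.84 and 6.53, Rps3a had 7.76, 7.08 and 7.83, Rpl35a had 7.46, 6.83 and 7.38, and Rps24 had 8.26, 7.64 and 8.10. On these probes the 4 were lower on BP10 by 0.62 to 0.80, and in BP40 against control their ratios ran from -0.16 to 0.07. Other probes differed in size. A probe of Rps3a gave -0.65 and one of Rpl35a -0.37 in BP40 against control, and in BP10 against control a probe of Rps24 gave -0.21.

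Rpl27a, Rpl39, Rplp2, Rpl7l1 and Rps29 had the highest ratios in BP10 against control, between 0.12 and 0.20 on the used probes. Other probes of Rpl27a gave -0.17 and -0.13, and those of Rps29 were also below the control. Rpl39, a small protein of the exit tunnel, had levels of 7.05, 7.24 and 7.66 on its used probe, whose ratio to control at BP40 was 0.60 (1.52-fold). A second probe of Rpl39 had 7.38, 7.01 and 7.13, lower on both BP arrays, so the probes of this gene differed in direction.

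On the used probe, 8 genes were lower on BP40 than on BP10. Rpl34 had levels of 7.83, 7.69 and 7.39, and its second probe gave 7.25, 7.17 and 6.91, so that both probes had the order control, BP10, BP40 and ratios between the doses of -0.30 and -0.26. Rpl6 had 7.58, 7.68 and 7.38, Rps18 had 7.12, 7.20 and 7.04, and Rpl27a had 7.70, 7.89 and 7.76. Rps2 had 8.0, 7.79 and 7.75 on its used probe, placed at chr17:42864841-42864900 (mm9), far from its other probe at chr17:24857583-24857642. For these 4, however, other bright probes were higher on BP40 than on BP10, by 0.31 and 0.30 for Rpl6, 0.38 for Rps18, 0.49 for Rpl27a and 0.26 for Rps2. Of the 5 bright genes, both probes were lower only for Rpl34. The others, Rpl21, Rps4y2 and Rpl7l1, had levels under 4 on all 3 arrays. Rpl21, with 0.16, 0.05 and -0.58, was the lowest in BP40 against control of the members above background on every array, at -0.74 (1.68-fold lower), while its second probe, also dim, gave 0.03. Rpl30 was lower on both BP arrays on its used probe, with levels of 7.51, 7.08 and 7.17, and it is among the 5 lowest in BP40 against control. Its other probes gave 0.03 and 0.15 in that comparison.

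Genes mutated in Diamond-Blackfan anaemia, an inherited failure of red cell production, were drawn from both subunits. All 18 on the array were higher on BP40 than on BP10, with a median of 0.41 and a range from 0.11 to 0.70, and 4 of them passed 1.5-fold. Of all gene names 58.1% were higher between the doses and 7.8% past 1.5-fold, and of the equally bright ones 91.1% and 11.1%. In BP10 against control 16 of the 18 were lower and 2 higher, with a median of -0.21. There, 34.85% of all gene names and 16.8% of the equally bright ones were higher. The 9 genes of the exit tunnel were all higher on BP40 than on BP10, with a median of 0.30, and 6 of 7 genes around the path of the message were, with a median of 0.49. The used probes of the 4 X-linked genes were higher on BP40 than on both other arrays, with medians of 0.27 against control and 0.34 against BP10. Against control this rested on the probe. The used probe of Rps4x is placed on chromosome 3 and gave 0.23, and the one placed on X gave -0.42. Second probes of Rpl39 and Rpl10 gave -0.25 and -0.11.

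Of the 7 like-named paralogs, 5 were well above background on all 3 arrays. Rpl3l, a muscle form, was not well above background on either BP array, with levels of -5.05, -6.74 and -5.77. Rpl10l, a testis form, was not well above background on BP10 and was at least 2.47-fold lower there than on the control, with levels of -3.76, -5.77 and -4.72. Other genes as dim as Rpl10l, around a mean level of -4.75, had a median log2 ratio of -0.71 in BP10 against control. Their 10th percentile was -1.70, between the bound of -1.30 and the measured -2.005 of Rpl10l. Around -5.75, the brightness of Rpl3l, the median was -1.03 and the 10th percentile -2.39, beside a measured -1.69 for Rpl3l. The parent genes Rpl3 and Rpl10 had levels of 7.18, 7.15 and 7.22, and of 8.35, 8.36 and 8.66. Rpl39l had 2.48, 2.25 and 2.45, and Rpl7l1 had 0.09, 0.27 and 0.24, with its parent Rpl7 at 7.91, 7.45 and 7.91. Rpl22l1 had 6.56, 5.96 and 6.40 beside 7.16, 6.98 and 7.14 for Rpl22. Its log2 ratio of -0.60 in BP10 against control lay below the -0.18 of its parent. Rps27l, which p53 is known to induce, had 6.98, 6.56 and 6.77, lower on both BP arrays, while Rps27 had 7.64, 7.46 and 7.91. The probe named Rpl26l1 only on the control array had 5.89, 5.61 and 5.82 and carries the name of a pseudogene of Rpl26 in the other files. Rpl26 itself had 7.61, 7.39 and 7.77. Rps4y2, which RefSeq now calls Rps4l, had 3.95, 3.98 and 3.91.

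With no replicate arrays, probes of one gene and repeated spots gave the only measures of error. In BP10 against control, all probes of 29 of the 54 genes were lower, 0 genes had all probes higher, and 25 were mixed. In BP40 against BP10, all probes of 39 genes were higher and 13 were mixed. In BP40 against control 35 were mixed, 16 had all probes higher and 3 all lower, so the direction of single genes against the control was unsettled for most. A probe for Rpl23 that is printed on 10 spots had levels of 3.42 ± 0.09, 3.30 ± 0.07 and 3.65 ± 0.03 (SD over 10 spots of 1 array) on control, BP10 and BP40. This is a spread of levels for 1 dim probe, a different measure from the SD of ratios between probes of a gene.

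**Figure D4:**
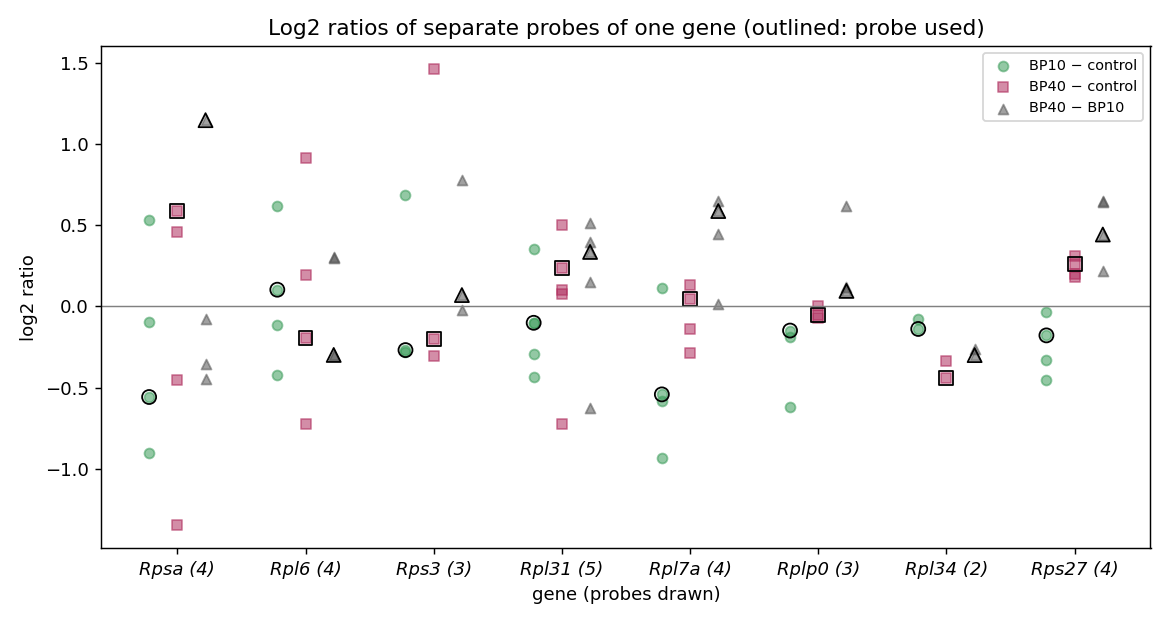
Log2 ratios of the separate probes of 8 ribosomal protein genes in the 3 comparisons, for probes above background on all arrays; outlined symbols are the probe used for the gene. The 4 probes of Rpsa lie on both sides of 0 in every comparison, while both probes of Rpl34 lie below 0 in every comparison.

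Rpsa, the small subunit protein also known as the laminin receptor, had probes on both sides of 0. Its used probe spans an intron (mm9, chr9:120040269-120040849) and had levels of 7.58, 7.02 and 8.17, which makes the log2 ratio of 1.15 (2.22-fold) between the doses. A second bright probe had 8.18, 7.27 and 6.83, lower on BP40 than on BP10 by 0.44. The remaining probes gave -0.08 and -0.36. The call past 2-fold therefore rests on 1 of 4 probes. The sequence of the used probe is shown because the call rests on it.
Rpsa, probe A_55_P2038077: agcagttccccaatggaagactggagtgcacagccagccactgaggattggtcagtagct

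Other genes whose probes differed by over 1 in some comparison were Rpl6, Rps3, Rpl31, Rpl7a and Rpl17. A probe of Rpl6 had levels of 6.89, 7.51 and 7.81, which is 0.92 above the control on BP40, where the used probe was 0.20 below it. A probe of Rps3 with no position in the design had 4.91, 5.60 and 6.38, a log2 ratio of 1.46 in BP40 against control beside -0.20 for the used probe. A dim probe of Rpl31 had 2.98, 2.88 and 2.26, lower on BP40 than on BP10 by 0.62, where its used probe was 0.34 higher. One of the 7 probes of Rpl17 had 5.87, 4.23 and 6.26, a ratio of 2.04 between the doses, and the used probe gave 0.28. For Rpl38, probes shifted by a few bases had ratios of 0.25 and 0.96 in BP40 against control.

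Some probes of one gene have nearly the same sequence and are shown so that their bases can be read beside their ratios. The 2 probes of Rpl7a below lie at the same 60 bases of chromosome 2 (chr2:26768759-26768818, mm9, plus strand) and differ at 6 of them, in capitals. Those of Rplp0 overlap on chromosome 5 by 53 bases and differ at 5, in capitals (chr5:116013397-116013456 and chr5:116013404-116013463, mm9, plus strand).
Rpl7a, probe A_55_P2001347: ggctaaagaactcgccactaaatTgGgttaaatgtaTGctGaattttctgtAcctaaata
Rpl7a, probe A_55_P2037922: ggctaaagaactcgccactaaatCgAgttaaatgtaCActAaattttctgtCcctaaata
Rplp0, probe A_55_P1970866: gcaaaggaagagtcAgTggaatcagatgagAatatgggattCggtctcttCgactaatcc
Rplp0, probe A_55_P2135098: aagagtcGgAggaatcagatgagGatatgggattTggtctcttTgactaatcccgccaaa
The first Rpl7a probe had log2 ratios of -0.94 for BP10 and -0.29 for BP40 over the control, and 0.65 between the doses, and the second -0.58, -0.14 and 0.45. The Rplp0 probes, in the order shown, had -0.19, -0.07 and 0.12, and -0.15, -0.05 and 0.10. Both pairs kept their direction, and the ratios of the Rplp0 pair differed by at most 0.04. Ribosomal protein genes have many processed pseudogenes, and which copies these probes also bind was not tested.

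The design placed 13 probes of 7 genes on a chromosome other than that of the gene, and for Rpl12, Rps27 and Rps29 every probe was so placed. This count leaves out distant places on the same chromosome, as between the probes of Rps2. All 13 were higher on BP40 than on control and than on BP10, with medians of 0.26 and 0.44, while over all 179 probes with values 106 and 154 were higher. Of the 155 probes with a mean level of 4 or more, which all 13 have, 99 and 145 were higher. Some of the 13, of Rps27 and of Rps29, overlap one another, so they are not independent. The used probe of Rps29, the zinc-binding protein at the head of the small subunit, is an example of such placement. It was placed at chr2:172335021-172335079 (mm9, minus strand), whereas RefSeq has the gene on chromosome 12.
Rps29, probe A_55_P1958354: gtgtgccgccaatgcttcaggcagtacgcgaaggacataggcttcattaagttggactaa
Its levels were 7.79, 7.92 and 8.13. The other Rps29 probes gave 0.31 and 0.32 in BP40 against control beside 0.33 for this one, and in BP10 against control -0.18 and -0.15 beside 0.12.

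Dim probes had other ratios than the bright probes of the same genes. In 17 genes a probe had a mean level under 4, and 14 of these lay downstream of the brightest probe, by 202 to 5131 bases on the mm9 genome, and 3 upstream. In BP40 against BP10 the median of these 17 probes was -0.07, with 6 higher, while the used probes of the same genes had a median of 0.28. In BP40 against control the medians were -0.28 and 0.01. The 36 probes that span an intron had medians of -0.22, 0.10 and 0.36 in the 3 comparisons, near the -0.22, 0.04 and 0.31 of the 142 with values that lie in 1 block. Genes whose used probe had at most 45% G and C had a median of 0.37 between the doses, and those above it 0.36.

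Other genes that make or serve the ribosome were read from probes of other brightness, so each list's median after subtraction of the running median at like brightness is given as well. For the cytosolic ribosomal proteins that value between the doses was 0.04. Ribosomal proteins whose symbols follow another pattern, among them Fau, Rpl36al and Gnb2l1, had log2 ratios between the doses of 0.41, 0.37 and 0.34, close to the members' median. Fau, made as a fusion with a ubiquitin-like protein, had levels of 8.02, 8.08 and 8.50. The 77 genes of the mitochondrial ribosome, which is built from a separate set of proteins, had medians of -0.15, 0.17 and 0.28. Of them 68 were higher on BP40 than on BP10, 9 past 1.5-fold, beside 58.1% and 7.8% of all gene names. At like brightness their median between the doses was 0.11. The largest were Mrps18c at 0.88, Mrpl14 at 0.78 and Mrpl22 at 0.76.

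Of 15 translation genes with a TOP tract, 12 were higher on BP40 than on BP10, beside 58.1% of all gene names. Their median was 0.19, or -0.03 at like brightness. Eif3h, a subunit of initiation factor 3, had levels of 5.81, 6.05 and 6.78 and a log2 ratio of 0.97 in BP40 against control. Eef1a1, the elongation factor that brings in aminoacyl-tRNA, had 7.70, 6.83 and 7.53, lower on BP10 by 0.88. Eef1d had a ratio of 0.51 between the doses. Of 23 initiation factors 18 were higher on BP40 than on BP10, with a median of 0.13, or -0.06 at like brightness, and 0 past 1.5-fold. Of all gene names, 7.8% were higher past 1.5-fold and 6.1% lower. Eif2s1 had 0.57, Eif3c 0.44 and Eif3j -0.49.

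Between the doses, the genes that process rRNA were more often lower than higher on BP40. Of 32, 12 were higher and 20 lower on BP40 than on BP10, with a median of -0.11, while 58.1% of all gene names were higher. In BP40 against control 13 of the 32 were higher, near the 42.3% of all gene names. In BP10 against control their median was 0.02. Nop14, of the small subunit processome, had levels of 0.53, 1.56 and 0.64 and log2 ratios of 1.03 in BP10 against control and -0.92 between the doses. Rrp1b had -0.68 and Nop10, of the box H/ACA particle, 0.59 between the doses. These probes were dimmer, with a median level of 3.13. After subtraction of the median at like brightness, their median between the doses was -0.27, beside 0.04 for the ribosomal proteins. The 14 genes of RNA polymerase I had medians of 0.01, 0.01 and -0.02, the last -0.12 at like brightness, with Cd3eap at -0.68, Ubtf at 0.62 and Polr1b at -0.39 between the doses.

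Of 16 genes that control growth and ribosome production, 10 were higher on BP40 than on BP10, near the 58.1% of all gene names. Their median was 0.04, or -0.13 at like brightness. Myc, a main activator of ribosomal genes, had levels of 2.07, 2.00 and 1.69. Mycn had -3.04, -3.26 and -4.87, a log2 ratio of -1.61 between the doses, the one gene of this list past 2-fold, beside 3.95% of all gene names. Rps6ka1, a kinase of Rps6, had 1.30, 1.15 and 1.88, and Mxd1, an antagonist of Myc, had -0.44, -1.05 and -0.47. Mtor itself had 0.27, 0.59 and 0.51.

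**Figure D5:**
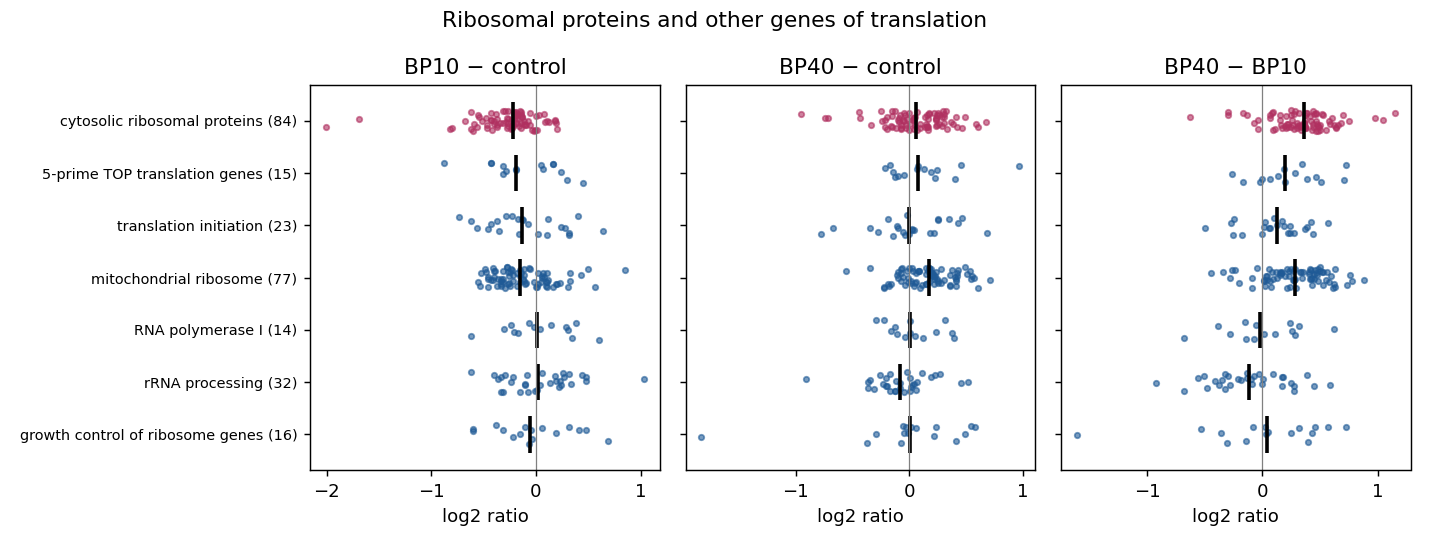
Log2 ratios of the ribosomal proteins (red) and of 6 other gene lists (blue) in the 3 comparisons; each point is a gene and bars are medians. Between the doses the medians run from 0.36 for the cytosolic and 0.28 for the mitochondrial ribosome to -0.11 for rRNA processing.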

How the data were processed

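RNA of MEF was hybridised to 3 Agilent 1-colour mouse arrays, 1 per condition. The authors deposited the scanner output of Feature Extraction 10.5.1.1, in which the processed intensity of each spot is already corrected for background. The series value table, also deposited, repeats these intensities. Outlier spots and controls were left out, log2 was taken and the 75th percentile of the 59305 gene spots of an array was subtracted (p75). Gene names are those of the BP40 file, with a probe counted as a member if any of the 3 files named it so. That concerned 6 of 180 probes. No Rps23 probe was found by name. Some genes that these rules pick are counted but not reported singly here. A called fold is at least 1.5 or 2, with a bound where 1 array was not above background. Genes named singly are the 5 highest and 5 lowest per comparison, those past 2-fold, the brightest and dimmest, paralogs, role lists and genes with discordant probes. Members and lists were chosen with earlier results of these data known. The sums were made in Python 3.11.15 and the normexp and quantile alternatives in limma 3.58.1. The 2-fold rule was run on simulated arrays with larger planted changes and no trend with brightness. That run gives no support to the calls on the real arrays, and it did not cover the 1.5-fold rule. Promoters and symbols are RefSeq's. Each condition has 1 array, so precision between cultures is unknown.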

Additional observations from a re-analysis of the deposited data

How the results depend on the processing

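Under 12 alternatives the large-minus-small difference stayed between -0.11 and 0.06. It cannot move under a scaling of whole arrays, and the series value table repeats the scanner values. The median in BP10 against control was -0.22 and went to -0.04 with quantile normalization and -0.01 after centring at like brightness. No paired analysis was possible because only 1 array exists per condition. The median in BP40 against BP10 was 0.038 after quantile normalization, -0.51 on the spike-in scale and 0.043 after centring at like brightness, an alternative added after seeing the data, as was leaving out probes placed on another chromosome. The median in BP40 against control was -0.74 on the spike-in scale. On that scale the median of all gene names was -0.92 in BP40 against control and -0.81 in BP40 against BP10. Shares of all gene names past each fold are not given for the alternatives. The members past 1.5-fold in BP10 against control (8) were 2 with quantile normalization, 4 with spike-ins, 5 with normexp and 2 after centring. In BP40 against control (5) they were 2 with quantile normalization, 3 with the percentile over probes above background, 57 with spike-ins and 1 after centring. In BP40 against BP10 (11) they were 4, 5, 31 and 5 in the same order, and 6 with the median of a gene's probes. The members past 2-fold in BP10 against control (1) were 0 with quantile normalization, without the paralogs and with members above background on all arrays. In BP40 against control (0) they were 1 with the percentile over probes above background, with normexp, with the median of probes and with NM_ accessions, and 11 with spike-ins. In BP40 against BP10 (1) they were 5 with spike-ins and 0 with quantile normalization, normexp, the median of probes and centring. The cause was not tested. With 1 array per condition no value has an error between cultures.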
